A study of Mus musculus with 6 samples.

Results

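The 36 genes described here carry fatty acids from the cell surface to the electron transfer chain of the mitochondrion. They were taken by symbol from a fixed list, and all 36 were found among the 15960 genes of the deposited table. The 6 liver RNA libraries came from C57BL/6 mice aged 22 weeks, 3 libraries Cyp2e1-/- (knockout) and 3 Cyp2e1+/+ (wild type), and the series design states that both genotypes were fed a high-fat diet for 14 weeks. CYP2E1, a P450 enzyme abundant in hepatocytes, acts on ethanol, acetone and fatty acids. The comparison asks how the hepatic transcriptome of mice that lack this enzyme differs from that of wild type mice under a fatty diet. The labels do not say how the allele was made, which cells lack the gene, the sex of the mice or whether a library holds 1 animal, and the wild type carries the same diet as the knockout.

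Long-chain fatty acids enter hepatocytes with the help of membrane proteins such as CD36 and the SLC27 family, and are bound in the cytosol by small fatty acid-binding proteins. Acyl-CoA synthetases join them to coenzyme A, and the carnitine shuttle moves the acyl group across the inner mitochondrial membrane. Each turn of beta-oxidation then runs through an acyl-CoA dehydrogenase, a hydratase, a hydroxyacyl-CoA dehydrogenase and a thiolase. The electrons of the dehydrogenases pass through the electron transfer flavoprotein to ubiquinone. In liver, many of these genes are known targets of the nuclear receptor PPARα, which the series title names.

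Cyp2e1 itself stood at 254, 247 and 271 FPKM (fragments per kilobase of transcript and per M fragments, where M is mega) in knockout replicates 1 to 3 and at 7427, 5942 and 6071 FPKM in wild type replicates 1 to 3, so the libraries matched their labels. The hepatocyte markers Alb, Apoa1, Ttr, Cps1 and Hnf4a were all present, with a summed level of 39397 to 47279 FPKM for the knockout and 35771 to 42554 FPKM for wild type. From steps in the low values, knockout replicate 1 was estimated to hold 12.1 M fragments and the other 5 libraries 9.41 to 9.94 M, so a level of 1 FPKM in a transcript of 1 kilobase rests on about 9.4 to 12.1 fragments. Knockout replicate 1 stood apart in 2 further ways. Its 10 most abundant genes took 37.7% of its FPKM against 32.5% to 33.5% elsewhere, and its tested genes had a median level 0.098 below their 6-library mean on the log2 scale, against -0.020 to 0.053 in the other libraries. Wild type replicate 1, at 32.8% and -0.020, was not apart in these ways. Results whose call depends on the replicate 1 libraries are given with and without them. Of 9968 genes tested, 76 passed an adjusted p of 0.05 with all 6 libraries (0.762%), and 1183 passed without replicate 1 of both genotypes (11.9%).

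All 36 genes were above the filter on low values, at means of 2.44 FPKM for Acsl3 to 4306 FPKM for Fabp1, the 18th most abundant gene of the table. The mean was above 100 FPKM for 17 genes, between 10 and 100 FPKM for 12, and below 10 FPKM for 7. Together they made up 1.19%, 1.82% and 1.85% of the summed FPKM in knockout replicates 1 to 3, against 1.5%, 1.49% and 1.55% in wild type replicates 1 to 3. Fabp1 alone supplied 35.3% of that sum in knockout replicate 1 and 45.1% to 51.6% in the other libraries. In the deposited annotation 16 of the 36 carry the term fatty acid degradation, which marks 0.351% of all genes in the table, and 13 carry the term PPAR signaling pathway, which marks 0.652%.

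None of the 36 genes passed the test between knockout and wild type (limma, Benjamini-Hochberg over 9968 genes, 3 libraries against 3), where 0.762% of all tested genes did. At an unadjusted p under 0.05 there were 4, namely Cd36, Acsl5, Acad9 and Ucp2, against 9.93% of all tested genes. The log2 fold changes, positive where the knockout was higher and taken on log2(FPKM + 1), ran from -0.65 for Cd36 to 0.45 for Acad9. Positive values were found for 26 of the 36 and for 44.2% of all tested genes, and the median was 0.079 against -0.028 for all tested genes. For 5 genes the values of the genotypes were fully apart, with Acad9 higher and Cd36, Acsl5, Acsm1 and Ucp2 lower in the knockout. Over all tested genes 15.4% did not overlap, 5.32% with the knockout higher and 10% with the knockout lower. For 30 of the 36 genes the 95% interval of the difference lay within a 1.5-fold change in either direction, against 66.0% of all tested genes.

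**Figure D1:**
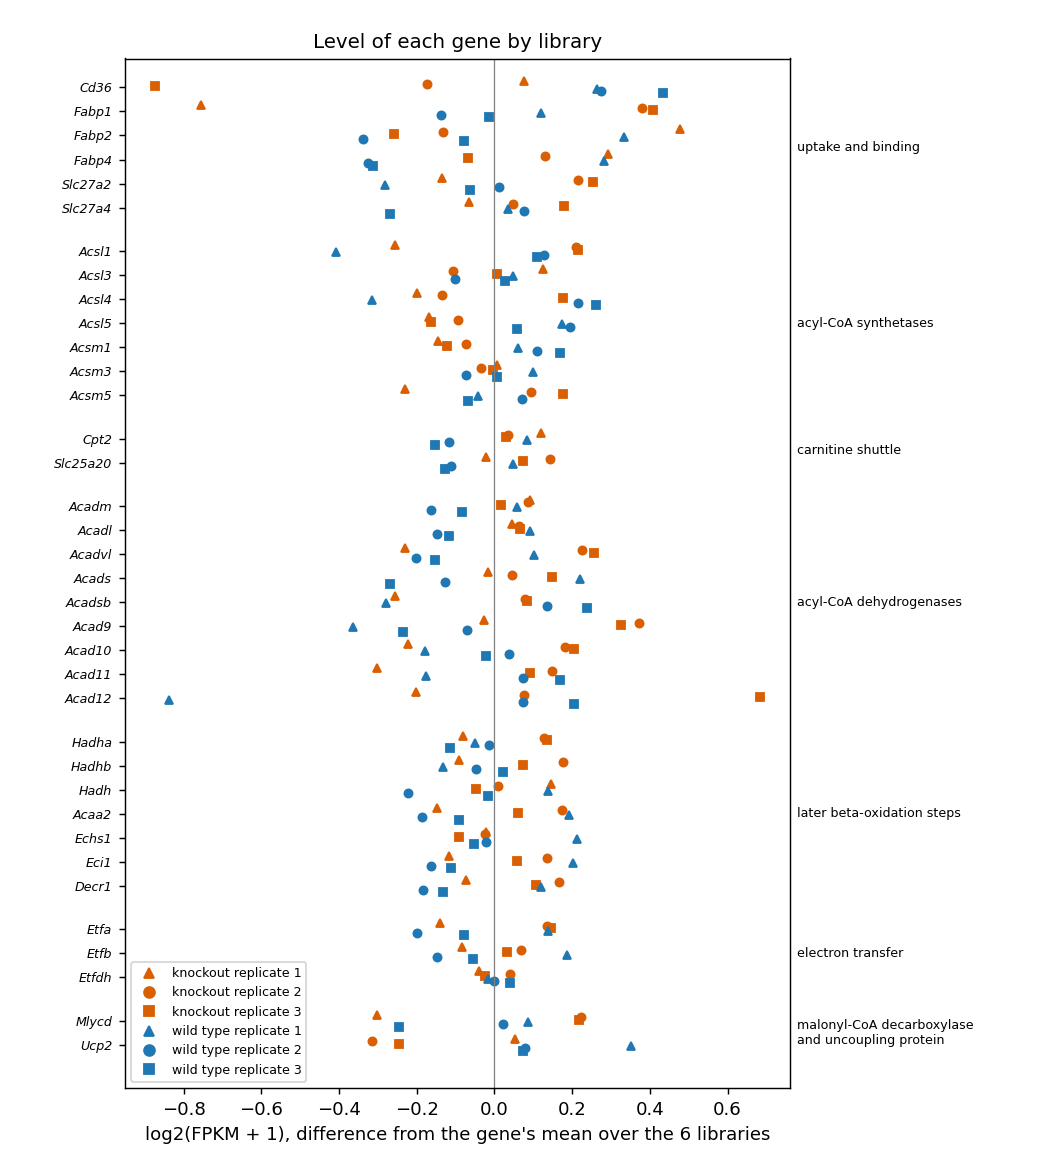
Level of each of the 36 genes in each library, as log2(FPKM + 1) minus the gene's mean over the 6 libraries (horizontal axis), grouped by step (rows). Orange points are knockout and blue points wild type, with triangles for replicate 1. Only Acad9, Cd36, Acsl5, Acsm1 and Ucp2 show no overlap between the genotypes, and the knockout replicate 1 point of Fabp1 lies far to the left of its group.

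Among the genes of uptake and binding, Fabp1, the liver fatty acid-binding protein of the hepatocyte cytosol, was the most abundant. It stood at 2468, 5421 and 5521 FPKM in knockout replicates 1 to 3 and at 4524, 3781 and 4122 FPKM in wild type replicates 1 to 3. Knockout replicate 1 was the lowest of all 6 libraries, and knockout replicates 2 and 3 were the highest. The means were 4470 ± 1735 and 4143 ± 372 FPKM (SD, n = 3 each), a log2 fold change of 0.022 (SE 0.28; 95% interval -0.60 to 0.65; limma, adjusted p = 0.99). Without knockout replicate 1 it was 0.41 (limma, adjusted p = 0.21), and without replicate 1 of both genotypes 0.47 (limma, adjusted p = 0.0014). The other alternatives gave -0.18 to 0.36, with negative values when knockout replicate 2, knockout replicate 3 or wild type replicate 2 was left out.

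The Fabp1 promoter is shown because this gene dominates the summed level and because it was the only member whose window held a TATA box. The window covers 250 bases before the RefSeq start site and 50 after it (GRCm38.p6, chr6:71199629-71199928, plus strand). Capitals mark the TATAAA box, whose first base lies 30 bases before the start, and 2 matches to the nuclear receptor core AGGTCA, read here on the opposite strand as TGACCT, which begin 67 and 9 bases before it.
Fabp1: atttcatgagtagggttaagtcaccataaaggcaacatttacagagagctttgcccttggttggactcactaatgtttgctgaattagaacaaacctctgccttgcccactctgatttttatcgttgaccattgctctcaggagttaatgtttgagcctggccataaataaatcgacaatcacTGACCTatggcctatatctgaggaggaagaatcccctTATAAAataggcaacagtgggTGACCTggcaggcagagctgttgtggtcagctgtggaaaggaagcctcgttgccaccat
TATAAA on either strand was found in 13.6% of 32851 mouse promoter windows of this length, and AGGTCA in 16.3%.

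Cd36 encodes a scavenger receptor that takes up long-chain fatty acids and is also found on macrophages, adipocytes and endothelium. It stood at 8.69, 7.16 and 4.02 FPKM in knockout replicates 1 to 3 and at 10.04, 10.13 and 11.42 FPKM in wild type replicates 1 to 3. Every knockout value lay below every wild type value, and knockout replicate 3 was the lowest. The means were 6.62 ± 2.38 and 10.5 ± 0.77 FPKM (SD, n = 3 each), and the log2 fold change was -0.65 (SE 0.22; 95% interval -1.14 to -0.15; limma, adjusted p = 0.33). Without knockout replicate 3 it was -0.37 (limma, adjusted p = 0.82). It passed without replicate 1 of both genotypes (-0.88; limma, adjusted p = 0.032) and with sample quality weights (-0.67; limma, adjusted p = 0.030), while over the 16 alternatives the adjusted p ran from 0.030 to 0.82.

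As a sum, macrophage markers were also lower in the knockout. The summed level of 8 markers of Kupffer cells and macrophages was 145, 104 and 77.9 FPKM in knockout replicates 1 to 3 and 152, 166 and 170 FPKM in wild type replicates 1 to 3, so the groups did not overlap and the order of the knockout libraries was that of Cd36. Of these 8, 7 had a negative log2 fold change with a median of -0.56 over all 8, and 1 fell (Lyz2, the lysozyme of myeloid cells, from 31.9 to 17.3 FPKM; limma, adjusted p = 0.038). Of all tested genes 0.291% fell, and 10% were lower in the knockout without overlap. None of the 8 was at 0 in any library. Of 6 endothelial markers 5 were negative, with sums of 57.4 to 80.3 FPKM for the knockout and 55.8 to 74.8 FPKM for wild type, and of the adipose markers Adipoq and Cfd were at 0 in at least 1 library. The order of the knockout libraries was not particular to the macrophage sum. In knockout replicates 1 to 3 it was shared by the sums of hepatocyte (47279, 42224 and 39397 FPKM) and red blood cell markers (393, 303 and 196 FPKM). The adipose sum (2.26, 1.98 and 1.49 FPKM) also had that order and was nearly all Cidec. The hepatocyte sum was mostly Alb (33779, 29531 and 27497 FPKM). Cps1 (622, 691 and 719 FPKM) and Hnf4a (93.45, 98.18 and 100.02 FPKM) had the reverse order, and Ttr was highest in knockout replicate 2. The endothelial and stellate cell sums had other orders. The sum of 6 stellate cell markers also did not overlap, at 71.9 to 74.8 FPKM in the knockout and 78.5 to 93.9 FPKM in wild type. Most of that sum was Dcn, at 61.8 to 63.8 FPKM in the knockout and 67.2 to 83.7 FPKM in wild type. Of the 5 stellate cell markers tested, 2 had a positive log2 fold change. In bulk liver, fewer cells of a type and less RNA per cell cannot be told apart, and the part of macrophages in the Cd36 values was not tested.

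The Cd36 window is printed because it is the member with the lowest fold change (GRCm38.p6, chr5:17835847-17836146, minus strand, written in the direction of the gene). Capitals mark, in this order, the receptor core on the opposite strand, a CCAAT box and 2 GC boxes.
Cd36: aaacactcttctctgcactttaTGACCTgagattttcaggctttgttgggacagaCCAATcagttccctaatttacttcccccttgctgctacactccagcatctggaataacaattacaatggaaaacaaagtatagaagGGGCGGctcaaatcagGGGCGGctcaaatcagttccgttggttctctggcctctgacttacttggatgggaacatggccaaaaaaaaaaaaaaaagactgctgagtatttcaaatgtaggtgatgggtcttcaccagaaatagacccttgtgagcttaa
The table of start sites gives 1 window for Cd36, while the deposited table lists 6 transcripts for it, so other start sites are not shown.

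Slc27a2, a very-long-chain acyl-CoA synthetase of the transporter family that also imports fatty acids, was the next most abundant gene of this step. It stood at 722, 921 and 946 FPKM in knockout replicates 1 to 3 and at 652, 800 and 759 FPKM in wild type replicates 1 to 3. Replicate 1 was the lowest library of each genotype, and knockout replicates 2 and 3 were the highest of all. With all 6 libraries the difference was 0.22 on the log2 scale (SE 0.15; limma, adjusted p = 0.69), and without replicate 1 of both genotypes 0.26 (SE 0.056; limma, adjusted p = 0.021).

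Fabp2, known as the intestinal fatty acid-binding protein and also present in liver, stood at 82.7, 53.8 and 49.3 FPKM in the knockout and 74.7, 46.5 and 55.9 FPKM in wild type. Here replicate 1 was the highest library of each genotype. Fabp4, the binding protein of adipocytes, macrophages and capillary endothelium, stood at 9.92, 8.76 and 7.51 FPKM in the knockout and 9.83, 6.12 and 6.18 FPKM in wild type, and again replicate 1 was highest in each. Its log2 fold change of 0.24 (95% interval -0.19 to 0.66) had the opposite sign to that of Cd36. Slc27a4, a transporter known mainly from the intestine, ranged from 5.16 to 7.41 FPKM with overlapping groups. In this step 5 of 6 fold changes were positive. Their median was 0.082, or 0.235 without replicate 1 of both genotypes.

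Among the acyl-CoA synthetases, Acsl1, the main long-chain synthetase of liver, stood at 337, 466 and 467 FPKM in knockout replicates 1 to 3 and at 303, 440 and 434 FPKM in wild type replicates 1 to 3. In both genotypes replicate 1 lay far below the others, and the genotypes overlapped. The log2 fold change was 0.11 (SE 0.18; 95% interval -0.30 to 0.52; limma, adjusted p = 0.93), and it was 0.094 without replicate 1 of both genotypes. A single library decided its size and sign, since it was 0.27 when knockout replicate 1 was left out and -0.062 when that of wild type was (limma, adjusted p = 0.51 and 0.87).

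Acsl5, a long-chain synthetase of the mitochondrial outer membrane and endoplasmic reticulum, had the smallest p of this step. It stood at 58.6, 61.8 and 58.9 FPKM in knockout replicates 1 to 3 and at 74.6, 75.8 and 68.8 FPKM in wild type replicates 1 to 3, without overlap. The means were 59.8 ± 1.79 and 73.1 ± 3.73 FPKM (SD, n = 3 each), a log2 fold change of -0.28 (SE 0.11; 95% interval -0.53 to -0.040; limma, adjusted p = 0.41). It passed under none of the 16 alternatives (limma, adjusted p = 0.076 to 0.88). The annotated exons of Acsl5 share 404 bases with those of Zdhhc6 on the opposite strand, and no source used here states whether the counting was stranded. Zdhhc6 stood at 28.4, 29.3 and 29.9 FPKM in the knockout and 32.2, 38.1 and 35.2 FPKM in wild type, also without overlap, and the part of shared reads was not tested.

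The medium-chain synthetases Acsm1, Acsm3 and Acsm5 lie within 1 stretch of chromosome 7, with 74397 bases between Acsm5 and Acsm1 and 98368 bases between Acsm1 and Acsm3. Read on the transcript strand only, these neighbours did not share 31-base words with each other or with any other annotated gene. Their values were not alike. Acsm1 stood at 123, 130 and 125 FPKM in the knockout and 143, 147 and 154 FPKM in wild type, without overlap (log2 fold change -0.23, SE 0.11; limma, adjusted p = 0.54). Acsm3 ranged from 65.1 to 67.0 FPKM in the knockout and 63.3 to 71.5 FPKM in wild type. Within each library the ratio of Acsm1 to Acsm3 was 1.84 to 1.99 for the knockout and 2 to 2.33 for wild type. Acsm5 overlapped fully, at 33.9 to 45.3 FPKM and 38.0 to 42.0 FPKM. The exons of Acsm3 share 1962 bases with Eri2 on the opposite strand, which reached 15.2 FPKM. Those of Acsm5 share 104 bases with Pdilt, also on the opposite strand, which reached 3.39 FPKM.

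Acsl4, a synthetase that prefers arachidonic acid, stood at 6.89, 7.25 and 9.24 FPKM in the knockout and 6.29, 9.52 and 9.86 FPKM in wild type. Acsl3, a synthetase of lipid droplets and endoplasmic reticulum, was the least abundant of the 36 genes, at 2.19 to 2.74 FPKM in the knockout and 2.20 to 2.55 FPKM in wild type. Both overlapped between genotypes. Of the 7 synthetases 3 had a positive and 4 a negative fold change, with a median of -0.021, and all 7 intervals lay within a 1.5-fold change.

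**Figure D2:**
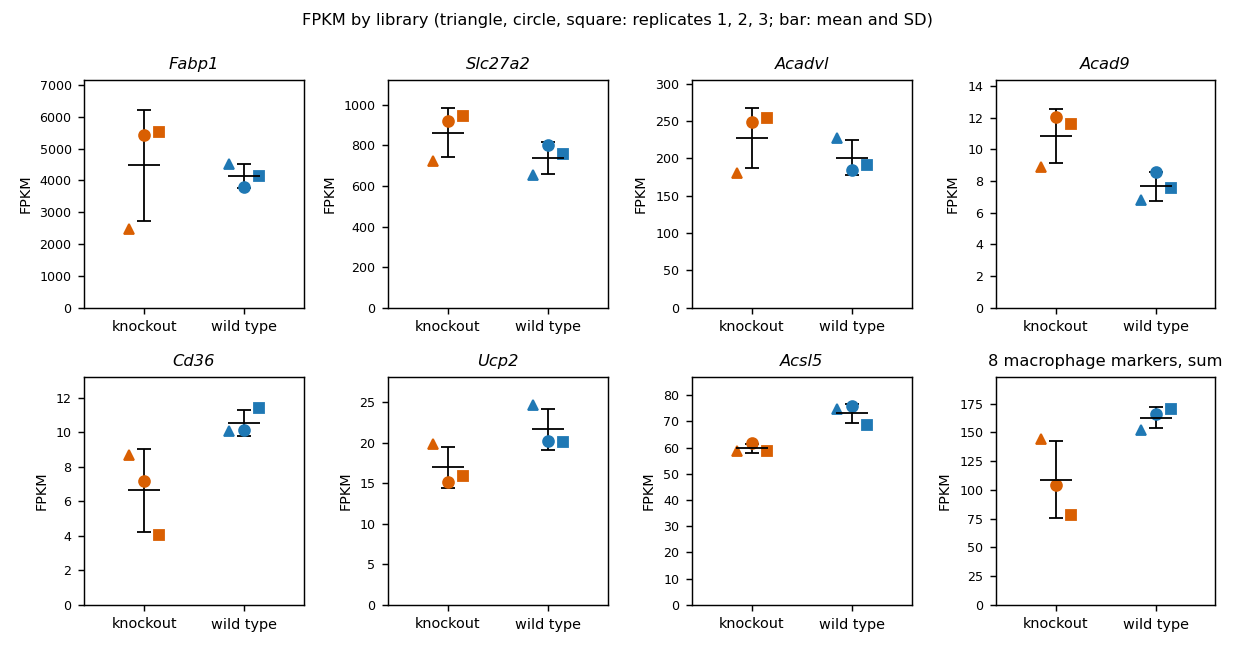
FPKM in each library (vertical axis, from 0) for 7 of the genes and for the sum of 8 macrophage markers, with knockout on the left and wild type on the right of each panel. Black bars give the mean and SD of 3 libraries. Cd36 and the macrophage sum have the same order of knockout libraries, with replicate 1 highest and replicate 3 lowest, while Fabp1 and Acadvl are lowest in knockout replicate 1. The sum of hepatocyte markers, which is mostly Alb and is not shown, has the same order as Cd36.

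The carnitine shuttle was represented by Cpt2, the inner-membrane carnitine palmitoyltransferase that returns the acyl group to coenzyme A, and Slc25a20, the carnitine-acylcarnitine carrier. Cpt2 stood at 83.8, 79.0 and 78.8 FPKM in knockout replicates 1 to 3 and at 81.8, 71.0 and 69.3 FPKM in wild type replicates 1 to 3. Wild type replicate 1 lay among the knockout values and the other wild type libraries lay below them. Slc25a20 showed the same placing of the wild type libraries, at 67.3, 75.5 and 72.0 FPKM in the knockout and 70.6, 63.2 and 62.5 FPKM in wild type. Within the knockout, replicate 1 was the highest library for Cpt2 and the lowest for Slc25a20. Their log2 fold changes were 0.12 (SE 0.12; limma, adjusted p = 0.80) and 0.13 (SE 0.12; limma, adjusted p = 0.79). The ratio of Cpt2 to Slc25a20 was 1.13 ± 0.10 in the knockout and 1.13 ± 0.025 in wild type (SD, n = 3 each).

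Among the acyl-CoA dehydrogenases, which open each turn of beta-oxidation, Acadm, the medium-chain enzyme, was the most abundant. It stood at 348, 347 and 330 FPKM in knockout replicates 1 to 3 and at 340, 291 and 308 FPKM in wild type replicates 1 to 3. Only wild type replicate 1 reached the knockout values. The log2 fold change was 0.13 (SE 0.115; 95% interval -0.13 to 0.39; limma, adjusted p = 0.79). Acadl, the long-chain enzyme, stood at 121, 123 and 123 FPKM in the knockout and 125, 106 and 108 FPKM in wild type, with wild type replicate 1 the highest of all. The ratio of Acadm to Acadl was 2.79 ± 0.095 in the knockout and 2.77 ± 0.069 in wild type (SD, n = 3 each).

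Acadvl, the very-long-chain enzyme bound to the inner membrane, varied more. It stood at 181, 248 and 254 FPKM in knockout replicates 1 to 3 and at 228, 184 and 191 FPKM in wild type replicates 1 to 3. Knockout replicate 1 was the lowest library and wild type replicate 1 lay nearest to knockout replicates 2 and 3. With all libraries the difference was 0.17 on the log2 scale (SE 0.16; limma, adjusted p = 0.80), and it was 0.42 (SE 0.061; limma, adjusted p = 0.0035) without replicate 1 of both genotypes. With sample quality weights it was 0.35 (limma, adjusted p = 0.041). Its exons share 1151 bases with Dvl2 on the opposite strand, which reached no more than 1.33 FPKM.

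Acad9, which acts on long acyl chains and is also an assembly factor of respiratory complex I, had the highest fold change of the 36 genes with all libraries on log2(FPKM + 1). With a pseudocount of 0.01 in place of 1 it was 0.50, below 0.54 for Acad12, and leaving out single libraries put Acad12 first in 2 of 6 cases and Fabp4 first in 1. Acad9 stood at 8.89, 12.03 and 11.62 FPKM in knockout replicates 1 to 3 and at 6.82, 8.59 and 7.55 FPKM in wild type replicates 1 to 3. The groups did not overlap, with 8.89 in knockout replicate 1 just above 8.59 in wild type replicate 2, and replicate 1 was the lowest of each genotype. The means were 10.8 ± 1.71 and 7.65 ± 0.89 FPKM (SD, n = 3 each), a log2 fold change of 0.45 (SE 0.16; 95% interval 0.10 to 0.80; limma, adjusted p = 0.34). It passed without replicate 1 of both genotypes (0.50; limma, adjusted p = 0.030) and with sample quality weights (0.49; limma, adjusted p = 0.020), and the 16 alternatives gave 0.37 to 0.57 with adjusted p from 0.020 to 0.84. Of the 31-base words of Acad9, 18.9% also occur in transcripts of other annotated genes, mainly in Gm43079, which shares 559 exonic bases with it.

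Acad10 and Acad12, dehydrogenases whose roles are less well defined, lie 2088 bases apart on chromosome 5 and share sequence. Acad10 stood at 17.9, 24.0 and 24.4 FPKM in the knockout and 18.5, 21.6 and 20.7 FPKM in wild type. Acad12 was far lower, at 2.34, 3.05 and 5.17 FPKM in the knockout and 1.15, 3.04 and 3.43 FPKM in wild type. Both were lowest in replicate 1 of each genotype. The ratio of Acad10 to Acad12 ranged from 4.72 to 7.87 in the knockout and from 6.04 to 16.1 in wild type. Since 26.0% of the 31-base words of Acad10 occur in Acad12, the split of reads between them is uncertain.

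The promoter windows of Acad10, Acad12 and Etfdh each held the palindromic binding motif of NRF1, a factor known for nuclear genes of mitochondrial proteins. These were 3 of 33 windows of the list, against 0.971% of all 32851 windows. The stretches around the motif, in capitals, are given in the direction of each gene (GRCm38.p6, minus strand, at chr5:121660494-121660533, chr5:121618958-121618997 and chr3:79628871-79628910) to show how alike the neighbours Acad10 and Acad12 are outside it.
Acad10: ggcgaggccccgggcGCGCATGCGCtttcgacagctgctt
Acad12: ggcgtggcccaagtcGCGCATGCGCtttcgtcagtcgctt
Etfdh: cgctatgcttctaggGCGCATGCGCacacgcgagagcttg
A match describes these letters only. Acad10, Acad12 and Etfdh had log2 fold changes of 0.11, 0.37 and -0.016, none past the threshold (limma, adjusted p = 0.90, 0.76 and 0.99).

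The other dehydrogenases overlapped between genotypes. Acads, the short-chain enzyme, stood at 93.8, 98.0 and 105 FPKM in the knockout and 111, 86.9 and 78.6 FPKM in wild type, with wild type replicate 1 the highest of all (log2 fold change 0.12; limma, adjusted p = 0.88), and it passed without replicate 1 of both genotypes (0.30; limma, adjusted p = 0.047). Acadsb, which acts on short branched chains from isoleucine, stood at 36.9, 46.8 and 46.9 FPKM in the knockout and 36.2, 48.6 and 52.3 FPKM in wild type. Acad11, which acts on long acyl chains and hydroxy fatty acids, stood at 99.5, 136 and 131 FPKM in the knockout and 109, 129 and 138 FPKM in wild type. Acadsb and Acad11 were low in replicate 1 of each genotype. Among the 9 dehydrogenases 7 fold changes were positive, the median was 0.12, and 7 of 9 intervals lay within a 1.5-fold change.

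The later steps begin with Hadha and Hadhb, the alpha and beta subunits of the mitochondrial trifunctional protein, which bind as a complex and carry out hydration, oxidation and thiolysis of long chains. Hadha stood at 98.9, 114 and 115 FPKM in knockout replicates 1 to 3 and at 101, 104 and 96.6 FPKM in wild type replicates 1 to 3. Hadhb stood at 130, 157 and 146 FPKM in the knockout and 127, 134 and 141 FPKM in wild type. In both genes knockout replicates 2 and 3 were above all wild type libraries and knockout replicate 1 lay among the latter. The log2 fold changes were 0.12 (SE 0.12; limma, adjusted p = 0.81) and 0.10 (SE 0.12; limma, adjusted p = 0.86), and the ratio of Hadha to Hadhb was 0.76 ± 0.029 in the knockout and 0.75 ± 0.059 in wild type (SD, n = 3 each). Of the 31-base words of Hadhb, 61.2% also occur in the processed pseudogene Gm13910, so its value may include or lose shared reads.

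Both subunit genes start 273 bases apart on opposite strands of chromosome 5, and their promoter windows share 228 bases. The window of Hadhb is shown (GRCm38.p6, chr5:30155003-30155302, plus strand), with matches to the GC box GGGCGG, on either strand, in capitals. It covers most of the stretch between this pair, and its last 50 bases lie in Hadhb. The matches that begin 10 and 24 bases after the start site are within those 50.
Hadhb: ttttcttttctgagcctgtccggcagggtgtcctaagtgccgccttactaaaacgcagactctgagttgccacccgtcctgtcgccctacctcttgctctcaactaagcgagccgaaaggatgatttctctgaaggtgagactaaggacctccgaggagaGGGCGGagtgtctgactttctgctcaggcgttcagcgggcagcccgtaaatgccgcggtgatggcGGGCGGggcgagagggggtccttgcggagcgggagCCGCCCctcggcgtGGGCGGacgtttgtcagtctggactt
GGGCGG occurred in 20 of 33 windows of the list and in 35.7% of all windows.

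Acaa2, the mitochondrial 3-ketoacyl-CoA thiolase, was the most abundant gene of the later steps. It stood at 558, 697 and 644 FPKM in knockout replicates 1 to 3 and at 706, 543 and 580 FPKM in wild type replicates 1 to 3. The highest value was in wild type replicate 1 and the groups overlapped fully. The log2 fold change was 0.057 (SE 0.14; 95% interval -0.27 to 0.38; limma, adjusted p = 0.95), and 0.255 without replicate 1 of both genotypes (SE 0.064; limma, adjusted p = 0.038). It turned to -0.016 when knockout replicate 2 was left out and to -0.022 when that of wild type was (limma, adjusted p = 1 and 0.99). Eci1, the enoyl-CoA isomerase for unsaturated chains, showed the same order at 164, 196 and 185 FPKM in the knockout and 205, 159 and 165 FPKM in wild type. Decr1, the dienoyl-CoA reductase that also serves unsaturated chains, stood at 58.2, 68.7 and 65.9 FPKM and 66.5, 53.7 and 55.7 FPKM. Decr1 passed without replicate 1 of both genotypes (0.29; limma, adjusted p = 0.039) and Eci1 did not (0.23; limma, adjusted p = 0.052).

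Hadh, the short-chain hydroxyacyl-CoA dehydrogenase, stood at 214, 195 and 187 FPKM in the knockout and 213, 166 and 191 FPKM in wild type, with replicate 1 highest in each. Echs1, the short-chain enoyl-CoA hydratase, stood at 147, 147 and 140 FPKM in the knockout and 173, 147 and 144 FPKM in wild type, and was the only one of the 7 genes of the later steps with a negative fold change (-0.091, 95% interval -0.36 to 0.17). Its exons share 142 bases with Paox on the opposite strand, which reached 11.2 FPKM. The median over the 7 genes was 0.069, and all 7 intervals lay within a 1.5-fold change.

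The electron transfer flavoprotein is a dimer of the products of Etfa and Etfb, and Etfdh encodes the oxidoreductase that hands its electrons to ubiquinone. Etfb stood at 270, 300 and 293 FPKM in knockout replicates 1 to 3 and at 326, 258 and 275 FPKM in wild type replicates 1 to 3. Etfa stood at 194, 236 and 237 FPKM in the knockout and 236, 187 and 203 FPKM in wild type. In both, knockout replicate 1 was the lowest of the knockout and wild type replicate 1 the highest of the wild type. The ratio of Etfa to Etfb was 0.77 ± 0.047 in the knockout and 0.73 ± 0.0079 in wild type (SD, n = 3 each), with 0.72 in knockout replicate 1.

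The log2 fold changes were 0.093 for Etfa (SE 0.14; limma, adjusted p = 0.91) and 0.012 for Etfb (SE 0.13; limma, adjusted p = 0.99), and without replicate 1 of both genotypes Etfa reached 0.28 (limma, adjusted p = 0.031). Leaving out single libraries gave -0.059 to 0.108 for Etfb, with the sign set by which library was left out. Of the 31-base words of Etfb, 62% occur in Gm45233, an annotated gene on the same strand that shares its exons, so reads there belong to either. Etfdh varied least of the 36 genes, at 113, 119 and 114 FPKM in the knockout and 114, 116 and 119 FPKM in wild type (log2 fold change -0.016, SE 0.11; 95% interval -0.25 to 0.22).

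Mlycd and Ucp2 stand beside the oxidation enzymes. Mlycd encodes malonyl-CoA decarboxylase, which removes the inhibitor of fatty acid entry into mitochondria. It stood at 39.0, 56.5 and 56.3 FPKM in the knockout and 51.4, 49.1 and 40.6 FPKM in wild type, with knockout replicate 1 the lowest of all 6 (log2 fold change 0.090, SE 0.17; limma, adjusted p = 0.93). The value was 0.26 without knockout replicate 1, 0.33 without replicate 1 of both genotypes and -0.010 without wild type replicate 3, none past the threshold (limma, adjusted p = 0.40, 0.067 and 1). Ucp2 encodes an inner-membrane carrier of the uncoupling protein family and is known to be strong in macrophages. It stood at 19.8, 15.1 and 15.9 FPKM in the knockout and 24.6, 20.2 and 20.1 FPKM in wild type, without overlap but with knockout replicate 1 just under the lowest wild type value.

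The log2 fold change of Ucp2 was -0.34 (SE 0.15; 95% interval -0.66 to -0.010; limma, adjusted p = 0.48). It passed without replicate 1 of both genotypes (-0.36; limma, adjusted p = 0.047) and with sample quality weights (-0.36; limma, adjusted p = 0.042), and adjusted p over the 16 alternatives ran from 0.042 to 0.93. The macrophage sum, 77.9 to 145 FPKM in the knockout against 152 to 170 FPKM in wild type, was also lower in the knockout. Within wild type, Ucp2 was highest and the sum lowest in replicate 1. The part of macrophages in the Ucp2 values was not tested.

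**Figure D3:**
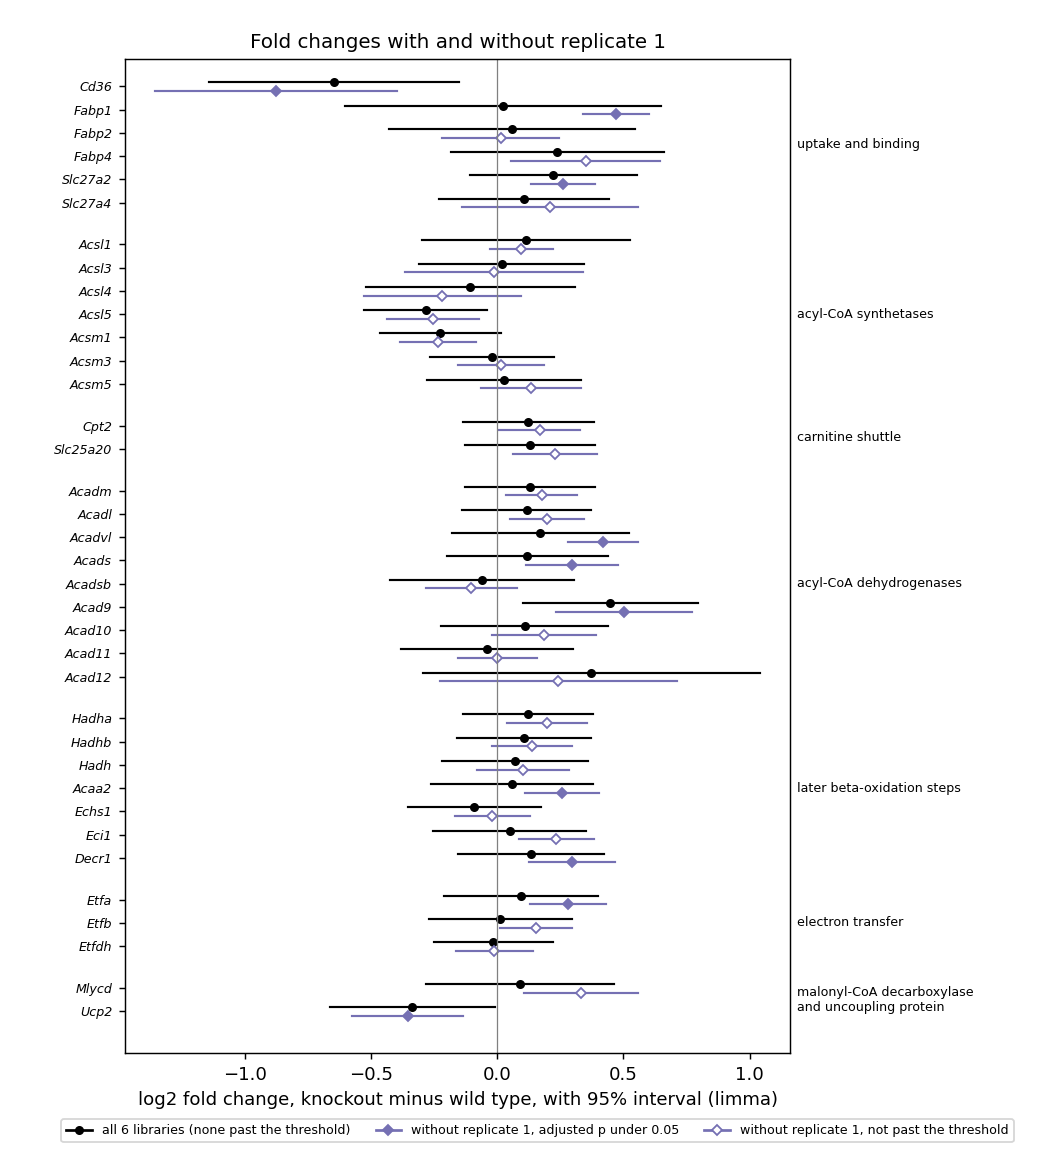
Log2 fold change of each gene, knockout minus wild type, with its 95% interval (horizontal axis), from all 6 libraries (black) and from the 4 libraries left without replicate 1 of both genotypes (purple, filled where the adjusted p was under 0.05). With all libraries none of the 36 passed, and without replicate 1 there were 8 higher and 2 lower.

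Leaving out replicate 1 of both genotypes gave calls for 10 of the 36 genes (27.8%), where 11.9% of all tested genes were called. Fabp1, Slc27a2, Acadvl, Acads, Acad9, Acaa2, Decr1 and Etfa rose in that fit, in which 6.92% of all tested genes rose, and Cd36 and Ucp2 fell, against 4.95% of all tested genes. The median log2 fold change of the 36 was then 0.17, against -0.0099 for all tested genes. In that fit 2 libraries stand against 2. Leaving out 1 library at a time called none of the 36, with medians of 0.033 to 0.13. With sample quality weights 4 of the 36 passed (11.1%), against 11.5% of all tested genes. Of these Acadvl and Acad9 rose, where 5.99% of all tested genes rose, and Cd36 and Ucp2 fell, where 5.56% fell.

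The replicate 1 libraries differed from the others in more than 1 pattern. In 11 genes replicate 1 was the lowest library of both genotypes (30.6%, against 31.6% of all tested genes), among them Slc27a2, Acsl1, Acadsb, Acad9, Acad10, Acad11 and Acad12. In 9 genes it was the highest of both (25%, against 11%), among them Fabp2, Fabp4, Cpt2, Acadm, Hadh and Ucp2. In a further 11 it was the lowest of the knockout and the highest of the wild type (30.6%, against 16.5%), and this set held Fabp1, Slc25a20, Acadl, Acadvl, Acads, Acaa2, Eci1, Decr1, Etfa, Etfb and Mlycd. The reverse was seen in Cd36 alone. Knockout replicates 2 and 3 both lay above wild type replicates 2 and 3 in 21 genes (58.3%, against 27.7% of all tested genes) and both below them in 6 (16.7%, against 28.5%). These shares describe the libraries and carry no test.

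**Figure D4:**
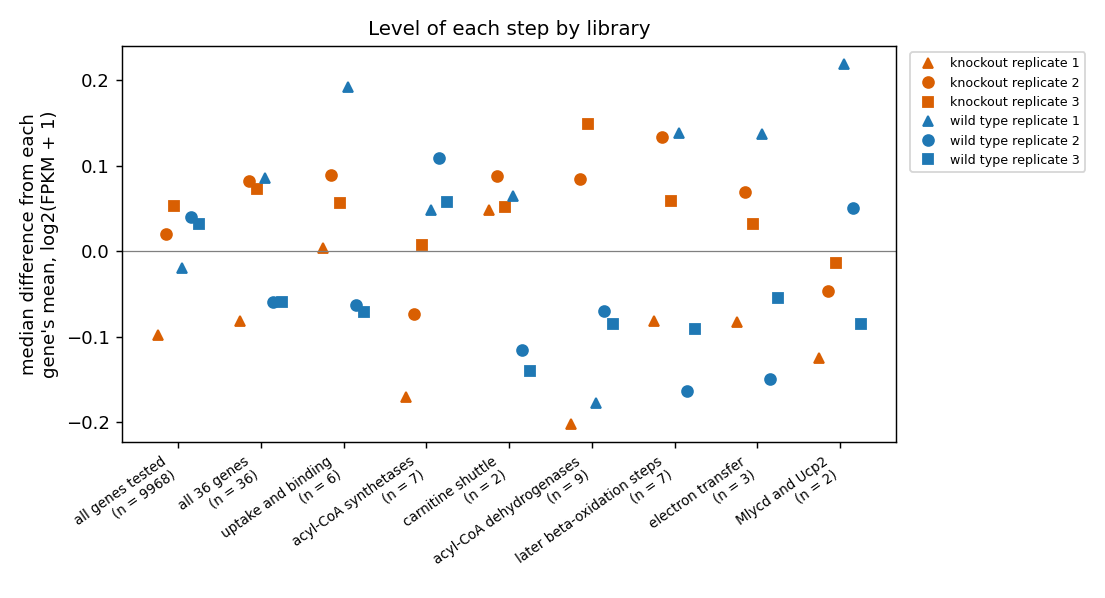
Median over the genes of each step of the difference from the gene's 6-library mean, on the log2(FPKM + 1) scale (vertical axis), for each library (orange knockout, blue wild type, triangles replicate 1). In the later steps and in electron transfer wild type replicate 1 (0.14 in both) lies with or above knockout replicates 2 and 3, while knockout replicate 1 (-0.082 and -0.083) lies with the other wild type libraries.

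By step, the levels of the libraries followed these patterns. For the 9 dehydrogenases the median level was -0.20, 0.085 and 0.15 in knockout replicates 1 to 3 and -0.18, -0.070 and -0.085 in wild type replicates 1 to 3, so replicate 1 was low in both genotypes. For the 7 genes of the later steps it was -0.082, 0.13 and 0.059 in the knockout and 0.14, -0.16 and -0.091 in wild type. Over all 36 genes it was -0.082, 0.082 and 0.073 in the knockout and 0.086, -0.059 and -0.059 in wild type. The genotypes overlapped over the 36 genes and in every step but the synthetases, which stood at -0.17, -0.073 and 0.007 in the knockout and at 0.048, 0.11 and 0.058 in wild type. The spread of these levels within a genotype, as a pooled SD, was 0.088 over the 36 genes. It is a spread of single libraries and not an error of the median fold change of 0.079, which was not tested.

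Other genes of fatty acid handling were taken from a list of 67 symbols, of which 61 matched the table and 54 were tested. Of the 54, 1 fell and none rose, against 0.291% and 0.472% of all tested genes, and 53 did not pass. The gene that fell was Nudt7, a peroxisomal diphosphatase of coenzyme A and its esters. It stood at 131, 169 and 155 FPKM in knockout replicates 1 to 3 and at 275, 269 and 270 FPKM in wild type replicates 1 to 3, far from overlap, and by limma the log2 fold change was -0.84 with an SE of 0.13 and an adjusted p of 0.016. The adjusted p became 0.072 without knockout replicate 3, 0.085 without wild type replicate 2, 0.10 without wild type replicate 3 and 0.053 with no filter on low values (limma). The log2 fold changes there were -0.862, -0.849, -0.846 and -0.842, as large as with all libraries.

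Cpt1a, the liver carnitine palmitoyltransferase of the outer membrane that gates entry into oxidation, stood at 97.1, 122 and 121 FPKM in the knockout and 75.6, 95.1 and 84.8 FPKM in wild type. These groups did not overlap, and the log2 fold change was 0.41 (SE 0.14; 95% interval 0.10 to 0.72; limma, adjusted p = 0.33). Slc27a1, a fatty acid transporter, stood at 2.15, 2.52 and 2.61 FPKM and at 1.87, 1.07 and 0.96 FPKM (0.59; limma, adjusted p = 0.26). Echdc1, which decarboxylates ethylmalonyl-CoA, stood at 21.9, 19.7 and 20.9 FPKM and at 24.9, 26.6 and 26.2 FPKM (-0.30; limma, adjusted p = 0.41). Acaca, the cytosolic acetyl-CoA carboxylase that makes malonyl-CoA, stood at 3.27, 3.96 and 4.45 FPKM and at 3.78, 8.93 and 8.08 FPKM (-0.63; limma, adjusted p = 0.44).

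These 4 genes did not pass with all libraries, and each passed without replicate 1 of both genotypes and with sample quality weights. Cpt1a was at 0.43 and 0.42 in those fits (limma, adjusted p = 0.0091 and 0.017). Slc27a1 was at 0.82 and 0.76 (limma, adjusted p = 0.012 and 0.0044). Echdc1 was at -0.36 in both (limma, adjusted p = 0.036 and 0.024). Acaca was at -0.87 and -0.85 (limma, adjusted p = 0.0046 and 0.0066), and it also passed without wild type replicate 1 alone (-0.96; limma, adjusted p = 0.031).

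Ppara itself stood at 23.0, 40.0 and 43.4 FPKM in knockout replicates 1 to 3 and at 19.5, 40.4 and 38.3 FPKM in wild type replicates 1 to 3. It was low in replicate 1 of both genotypes, and the others ranged from 38.3 to 43.4 FPKM (log2 fold change 0.13, SE 0.29; 95% interval -0.52 to 0.79; limma, adjusted p = 0.95). The value was 0.41 when knockout replicate 1 was left out and -0.19 when that of wild type was, so its sign rested on a single library (limma, adjusted p = 0.54 and 0.73). The list had 31 positive and 23 negative fold changes, with a median of 0.030. Without replicate 1 of both genotypes 16 of its 54 genes passed (29.6%, against 11.9% of all tested genes), of which 11 rose and 5 fell, where 6.92% and 4.95% of all tested genes did. Besides Nudt7, Cpt1a, Slc27a1, Echdc1 and Acaca, these were Acaa1b, Gcdh, Hsd17b4, Acaa1a, Ehhadh, Acot13, Pnpla2, Slc22a5, Acot2, Fabp7 and Cpt1b. Of these, Acaa1b also passed, as a gene that rose, when knockout replicate 1 alone was left out.

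The promoter windows of the 36 genes were compared with all windows in the RefSeq table, where 32 of the 36 genes matched with 33 windows. Their median GC content was 60.3% against 52.7% for 32851 windows, and the median number of CG pairs was 17 against 7. All windows include those of genes not tested here, and no background of tested genes alone was used for these values or the motif shares. GGGCGG was found in 60.6% of the 33 windows and CCAAT in 42.4%, against 35.7% and 37.4% of all windows, both strands being searched. The DR1 element is a tandem pair of AGGTCA cores with 1 base between them, and only its exact letters were searched. They were found in none of the 33 windows and in 13 of all 32851 (0.0396%). Letters this rare cannot show whether the 33 windows hold DR1 elements, since forms with a mismatch were not searched. The AGGTCA core was found in 7 (21.2%, against 16.3%), namely Acadm, Acadvl, Acsm1, Cd36, Echs1, Fabp1 and Slc27a2. In these 7 genes the log2 fold changes ran from -0.65 for Cd36 to 0.22 for Slc27a2. Matches of the core also lie inside the longer pattern, so both were searched over the same bases.

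**Figure D5:**
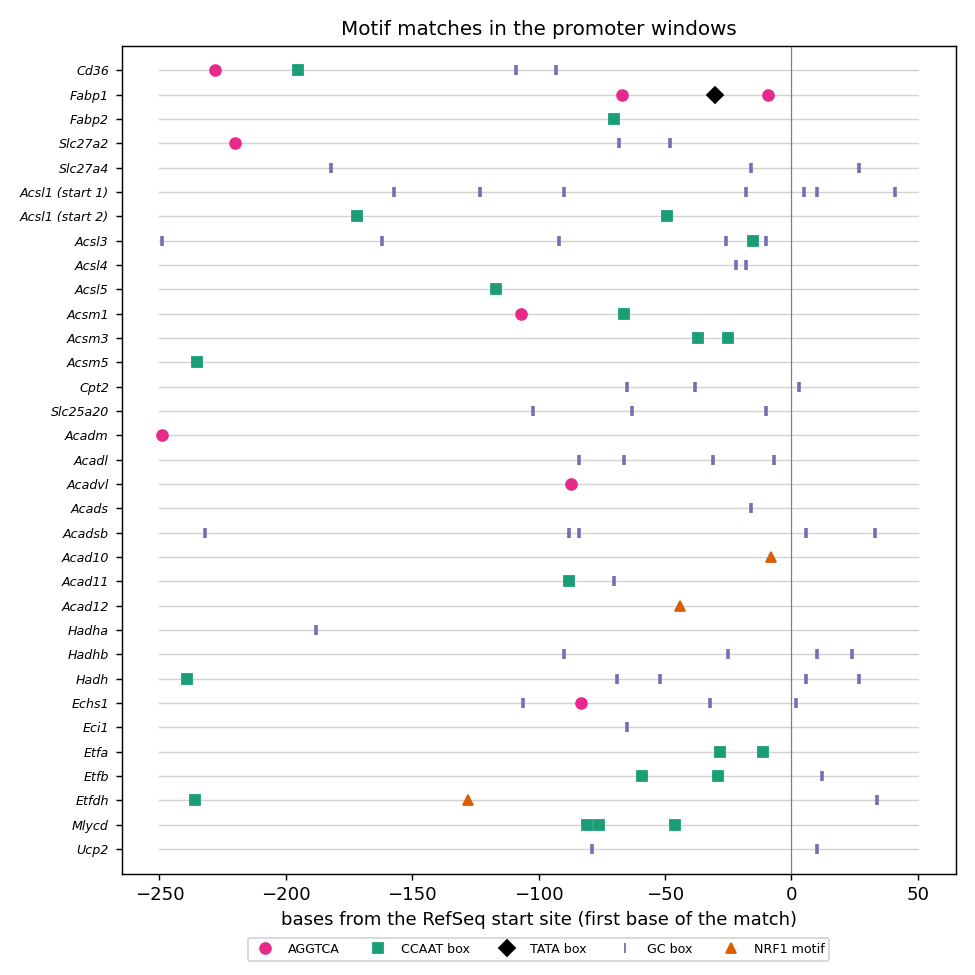
Motif matches on either strand in the 33 promoter windows of 32 genes, by distance in bases from the RefSeq start site (horizontal axis, from 250 before to 50 after), with genes in rows in the order of the steps. Purple ticks are GC boxes, green squares CCAAT boxes, pink circles AGGTCA, orange triangles the NRF1 motif and the black diamond the TATA box. GC boxes occur in 20 rows and the TATA box in that of Fabp1 only.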

How the data were processed

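Per the labels' protocols, RNA came from homogenized liver (Qiagen miRNeasy) and was sequenced from Illumina TruSeq libraries. HISAT and the build mm10 are named in the submitters' processing notes, and no source used here names the program behind the expression values. Values were deposited as FPKM per the file headers, to 2 decimals for 15960 genes, of which 3607 (6 of the 36) include transcripts the authors marked as new. Counts were not used here, so no count model was run.

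The test was limma 3.58.1 (lmFit, eBayes with trend, R 4.3.3) on log2(FPKM + 1), run over the 9968 genes that reached 1 FPKM in 3 or more samples, adjusted by Benjamini-Hochberg, with a threshold of 0.05. It was tested on simulated data. A fold change on this scale understates the change of low genes. The labels do not say that samples came from separate animals, so the p-values cover only the spread among these libraries, which may be technical. Depth was estimated from the steps of low values in genes of 600 to 2000 bases with 1 transcript, where 75.9% to 80.9% of values fell no more than 0.15 from a whole step (30% would by chance). The step size was chosen on these same values.

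Deviations from the group mean correlated at 0.30, 0.198 and 0.157 between same-numbered samples, all above 0.1, so a fit with the replicate as a block is among 16 alternatives. Between samples of unlike number the correlation was 0.212 for knockout replicate 3 with wild type replicate 2, and -0.298 to 0.031 for the rest. Those deviations sum to 0 within a group and are not independent evidence of pairing. The block called none of the 36 genes. Named in full are genes past the threshold, in each step those with the smallest p and the highest FPKM, and those without overlap and a log2 fold change of at least 0.3. The members, lists and tests were chosen with earlier results of these data known. Positions and promoters are from RefSeq (GRCm38.p6). Exon overlaps and 31-base words are from GENCODE M21, and the words were compared on the transcript strand only.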

Additional observations from a re-analysis of the deposited data

How the results depend on the processing

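The 14 members named in full were set against 16 alternatives, 224 comparisons in all. In 215 the side of the threshold stayed as reported, and in 9 a gene passed that did not with all libraries, always with sample quality weights or without replicate 1 of both genotypes. With sample quality weights the calls were 1151 of all genes, 4 members and 12 other pathway genes, and the median of uptake and binding was 0.194. All genes called were 32 with no filter on low values and 48 with at least 1 FPKM in all samples, against 76, and no pathway gene passed with no filter (0 against 1). When libraries were left out, the calls ranged from 29 to 1183 over all genes (knockout replicates 1 to 3 left out in turn, 211, 29 and 37; wild type replicates 1 to 3, 117, 32 and 32; replicate 1 of both, 1183), from 0 to 10 for the members and from 0 to 16 for the other pathway genes. Medians then ranged from 0.033 to 0.171 for the members, 0.026 to 0.235 for uptake and binding, -0.020 to 0.153 for electron transfer, and -0.020 to 0.196 for the later steps. The replicate block gave 72 calls over all genes and 0 members, and changed no other call named here. Median scaling moved the median of the members to 0.107 and gave 28 positive fold changes in place of 26, and the median of the synthetases turned from -0.021 to 0.007. At about 9.4 to 12.1 fragments per FPKM and kilobase, the genes under 10 FPKM, such as Acsl3 and Acad12, rest on fewer fragments per kilobase than the other members. Having 3 libraries a group limits all of these comparisons.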
